A study of Mus musculus with 18 samples.

Results

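A group of very long genes transcribed in mouse bone marrow-derived macrophages (BMDMs) was followed gene by gene through LPS stimulation and carboplatin treatment. The group was drawn up as a list of 40 long genes, most of them spanning more than 250 kb, and a gene was kept where it stood in all 18 count files with a mean of at least 20 reads. In total 33 of the 40 genes were kept, out of 22852 gene symbols in the files, of which 11305 passed the expression filter and were tested. All 33 passed that filter. The 33 were therefore chosen by their length and by their mean read count, and the list was drawn up with carboplatin results of the same libraries known, so counts over the list are given as a description. The closest kept gene to the limit was Camta1, with a mean of 28.8 reads, and the closest gene below it was Prkce, with 18.3 reads.

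The 18 libraries came from BMDMs of C57BL/6 mice, grown for 7 days with L929-conditioned medium, in 6 groups of 3. Unstimulated cells (Unstim) received no LPS. LPS-primed cells (LPS100) received LPS at 100 ng/ml for 24 h, and LPS-tolerant cells (Tol) received a second dose of 10 ng/ml for 3 h after that priming. In LPS100-Carbo25 and Tol-Carbo25, 25 µM carboplatin was added 1 h before priming, and the LPS was otherwise the same. The study describes the drug as present during priming. It also states that the medium was removed and fresh medium added for the second dose. LPS10Control cells received a single dose of 10 ng/ml, without priming. Its length is taken here as 3 h, which the text of the study does not state for this group. No unstimulated or singly stimulated cells with carboplatin were analysed here, so each carboplatin comparison was between cells that shared the priming dose.

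Long genes take RNA polymerase II far more time to copy than genes of ordinary size, because nearly all of their span is intron. Carboplatin is a platinum drug that binds guanines and links neighbouring guanines on a strand, and such adducts stall a polymerase that meets them on the template strand. In these genes 87.1% (Mbnl1) to 98.5% (Arhgap15, Bcas3 and Ube2e2) of the span lay outside annotated exons, so a read in an mRNA stands for a transcript many times longer than itself. The members do unrelated work: they include Rac regulators that move and steer macrophages, tethers and adaptors of membrane traffic, transcription factors, tRNA- and RNA-modifying enzymes and centrosome proteins. What they share is length. The comparisons ask which of them were lower in the presence of carboplatin, in which LPS state, and which were spared.

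Depth ranged from 6869667 to 14708099 reads assigned to genes per library, with a median of 8986463. Values below are read counts after TMM normalisation, scaled to the mean library, unless a log2 fold change (log2FC) is named. "Fell" and "rose" are used only of an adjusted p under 0.05 from edgeR's quasi-likelihood test, corrected over all 11305 tested genes. Macrophage markers (8 of 8 tested) summed to between 142042 and 304597 normalised counts in every library. Markers of B cells, T cells, dendritic cells and erythroid cells summed to at most 47.7 in any library, with Cd3d, Cd3e, Cd3g and Pax5 at 0 throughout, and those of fibroblasts to at most 84.4. Neutrophil markers summed to between 7.27 and 12.4 in unstimulated cells and to at most 542 after LPS, nearly all of it S100a8, with Ly6g and Mpo at 0. In bulk RNA, fewer cells of a type and less RNA per cell cannot be told apart.

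In the presence of carboplatin many of the kept genes fell in each LPS state, Arhgap15 with the lowest log2FC in both, and none rose. In LPS-primed BMDMs 17 of 33 genes fell and 0 rose, against 0.372% of all tested genes that fell and 0% that rose. In LPS-tolerant BMDMs 16 of 33 fell and 0 rose, against 0.407% and 0.0177%. The median log2FC of the 33 genes was -1.25 in LPS-primed and -1.05 in LPS-tolerant cells, and that of all tested genes was 0.01 in both. The fitted log2FC lay below 0 for 31 of 33 genes in LPS-primed and 33 of 33 in LPS-tolerant cells, compared with 48.3% and 48.6% of all tested genes. At the limits used in the study for carboplatin (adjusted p under 0.25 and a log2FC under -2), 6 genes passed in LPS-primed and 7 in LPS-tolerant cells, against 0.257% and 0.336% of all tested genes. With only the compared groups in the fit the counts were 9 and 2, and with the replicate number as a block 24 and 24. No share of all genes is given for these fits. The count in LPS-tolerant cells was 10 without LPS-tolerant replicate 2 and 9 without the carboplatin replicate 2 of that state. The study lists 10 of the 33 as changed by carboplatin in these same libraries, so their direction is not independent evidence. Among the 23 others, 8 fell in LPS-primed and 7 in LPS-tolerant cells. These 23 were also listed with carboplatin results of the same libraries known, so they are not independent evidence either.

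Most of the genes that fell did so in both states. In total 15 genes fell in both, 2 (Smyd3 and Vti1a) in LPS-primed cells only, 1 (Diaph3) in LPS-tolerant cells only, and 15 in neither by the test within a state. The pair of comparisons share no libraries, and across the 33 genes their log2FC values had a Spearman rank correlation of 0.89 and a Pearson r of 0.86, given as a description across genes. When the effect was averaged over both states, 24 of 33 genes fell and 0 rose, against 1.88% and 0.115% of all tested genes. The difference in effect between the states passed for 0 of 33 genes in either direction, against 0% and 0% of all tested genes. At an unadjusted p under 0.05 that difference was seen for 2 of 33, against 131 of all 11305 tested genes. The 2 were Smyd3 (difference 1.36, SE 0.36, 95% interval 0.59 to 2.13) and Bcas3 (0.81, SE 0.29, 95% interval 0.19 to 1.42), each with a smaller fall in LPS-tolerant cells. Their edgeR adjusted p was 1 for both, and DESeq2 also called 0 of 33.

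**Figure D1:**
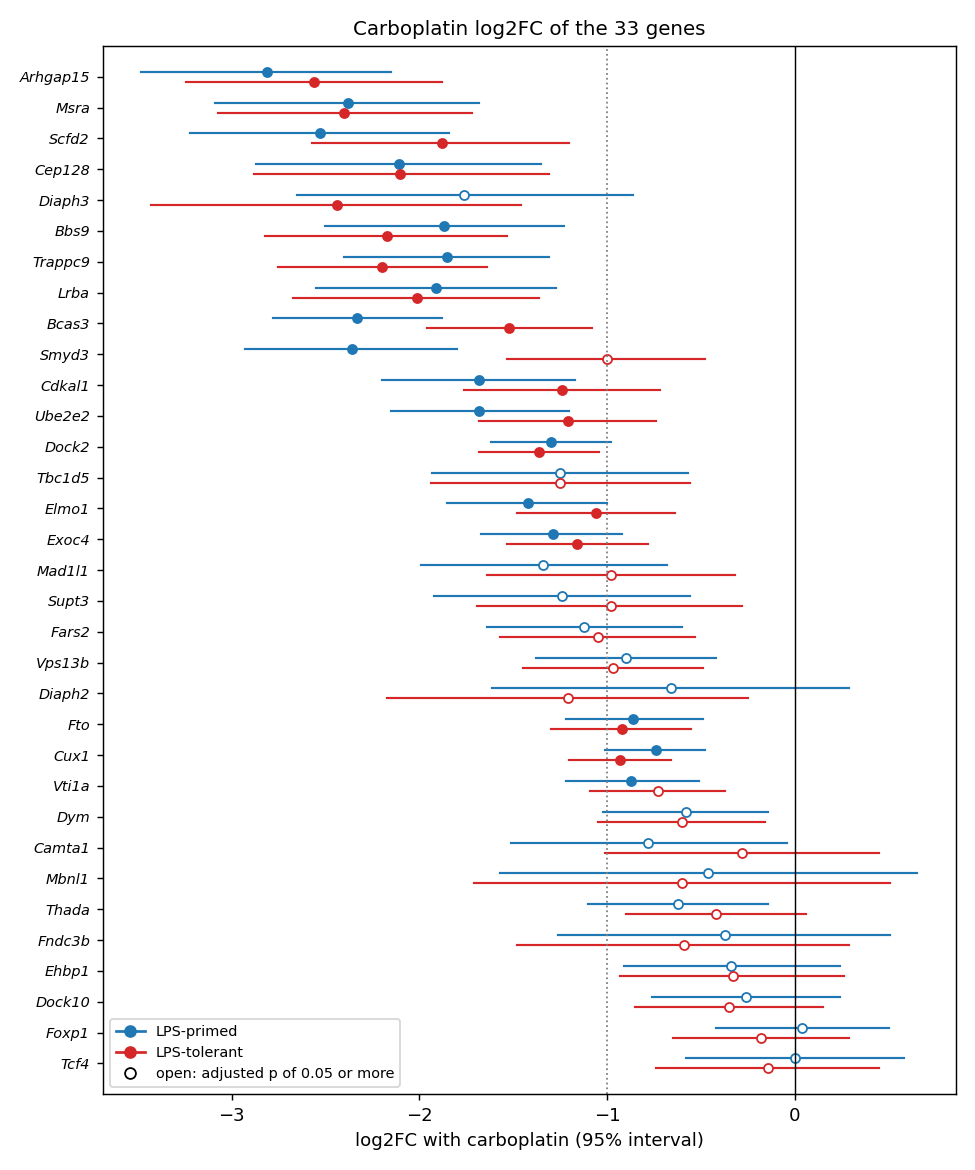
Points are the log2FC with carboplatin of each of the 33 genes in LPS-primed (blue) and LPS-tolerant (red) BMDMs, and lines are 95% intervals. Filled points passed an adjusted p of 0.05, the dotted line marks a log2FC of -1, and genes are ordered by the averaged effect, from Arhgap15 at the top to Tcf4 and Foxp1, which lie near 0, at the bottom.

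The regulators of Rac, Cdc42 and actin held both the lowest and some of the least changed genes. Of the 6, 3 fell in LPS-primed and 4 in LPS-tolerant cells. Arhgap15 (chr2:43638815-44285967, 647 kb, plus strand on GRCm39), a GTPase-activating protein that turns Rac off, had the lowest log2FC of all 33. It had 121, 187 and 161 normalised counts in the 3 LPS-primed libraries and 27, 16 and 24.1 in those with carboplatin. In LPS-tolerant cells the values were 64.6, 141 and 122 without and 14.4, 21.6 and 19.3 with carboplatin. The groups did not overlap in either state, and every carboplatin library stood far below every library without it. The log2FC was -2.81 (SE 0.32, edgeR adjusted p = 0.000182) in LPS-primed and -2.56 (SE 0.32, edgeR adjusted p = 0.000987) in LPS-tolerant cells. The same gene had 291, 432 and 518 normalised counts in unstimulated cells, so that priming and carboplatin each lowered it.

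Dock2 (chr11:34176815-34674798, 498 kb, minus strand), the leukocyte activator of Rac that drives macrophage and lymphocyte migration, was read most deeply among the falling genes, and its fall had one of the smallest errors. Its counts were 2843, 3751 and 2889 in LPS-primed cells and 1222, 1421 and 1202 with carboplatin. In LPS-tolerant cells they were 2587, 2785 and 2355 without and 1078, 965 and 959 with carboplatin. Each of the 6 carboplatin libraries stood below each of the 6 without it. The log2FC was -1.30 (SE 0.15, edgeR adjusted p = 0.000197) and -1.36 (SE 0.15, edgeR adjusted p = 0.000286) in the respective states. Elmo1, the adaptor that binds DOCK proteins during engulfment, went from 449 ± 127 to 166 ± 42.5 (mean ± SD, n = 3) in LPS-primed cells and from 392 ± 36.2 to 188 ± 2.63 in LPS-tolerant cells. Its log2FC was -1.42 (SE 0.20, edgeR adjusted p = 0.00136) and -1.06 (SE 0.20, edgeR adjusted p = 0.0237). The LPS-tolerant call of Elmo1 was lost in 5 of 6 fits without 1 library, where the adjusted p reached at most 0.12.

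Dock10 (chr1:80478790-80736244, 257 kb, minus strand), an activator of Cdc42, stood apart from Dock2 and Elmo1. Its counts were 984, 1431 and 1227 in LPS-primed cells and 809, 1324 and 907 with carboplatin, and the ranges overlapped. In LPS-tolerant cells they were 1138, 1788 and 1736 without and 903, 1501 and 1249 with carboplatin, again overlapping. The log2FC was -0.26 (95% interval -0.76 to 0.24, edgeR adjusted p = 0.95) and -0.35 (95% interval -0.85 to 0.15, edgeR adjusted p = 0.943), so a fall of 1 on the log2 scale lay outside both intervals. All 3 same-numbered pairs were lower with carboplatin in each state, and with the replicate block the averaged log2FC of -0.31 had an adjusted p of 0.0288 in edgeR.

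Diaph2 and Diaph3 encode formins, which extend actin filaments. Diaph3 had 33.9, 84.3 and 67.5 counts in LPS-primed cells and 20.3, 24.4 and 10.1 with carboplatin. In LPS-tolerant cells it had 30.4, 70.8 and 54.6 without and 9.18, 11.4 and 8.27 with carboplatin. The groups did not overlap in either state, although the gene fell by the test only in LPS-tolerant cells, with a log2FC of -2.44 (SE 0.47, edgeR adjusted p = 0.0245) against -1.76 (SE 0.42, edgeR adjusted p = 0.112) in LPS-primed cells. The LPS-tolerant call was lost in 5 of 6 fits without 1 library (adjusted p up to 0.145), and the LPS-primed one was gained without LPS-primed replicate 1 (adjusted p = 0.0432) or with the block (0.00555). Diaph2, on the X chromosome, varied widely between replicates, with 310.2, 792 and 686 counts in LPS-tolerant cells and 112, 330.1 and 329.9 with carboplatin. Its log2FC of -1.21 (95% interval -2.17 to -0.25, edgeR adjusted p = 0.501) in LPS-tolerant and -0.66 (95% interval -1.61 to 0.29, edgeR adjusted p = 0.892) in LPS-primed cells did not pass. All 3 same-numbered pairs were lower in both states, and the adjusted p with the replicate block was 0.00023 and 0.0424.

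**Figure D2:**
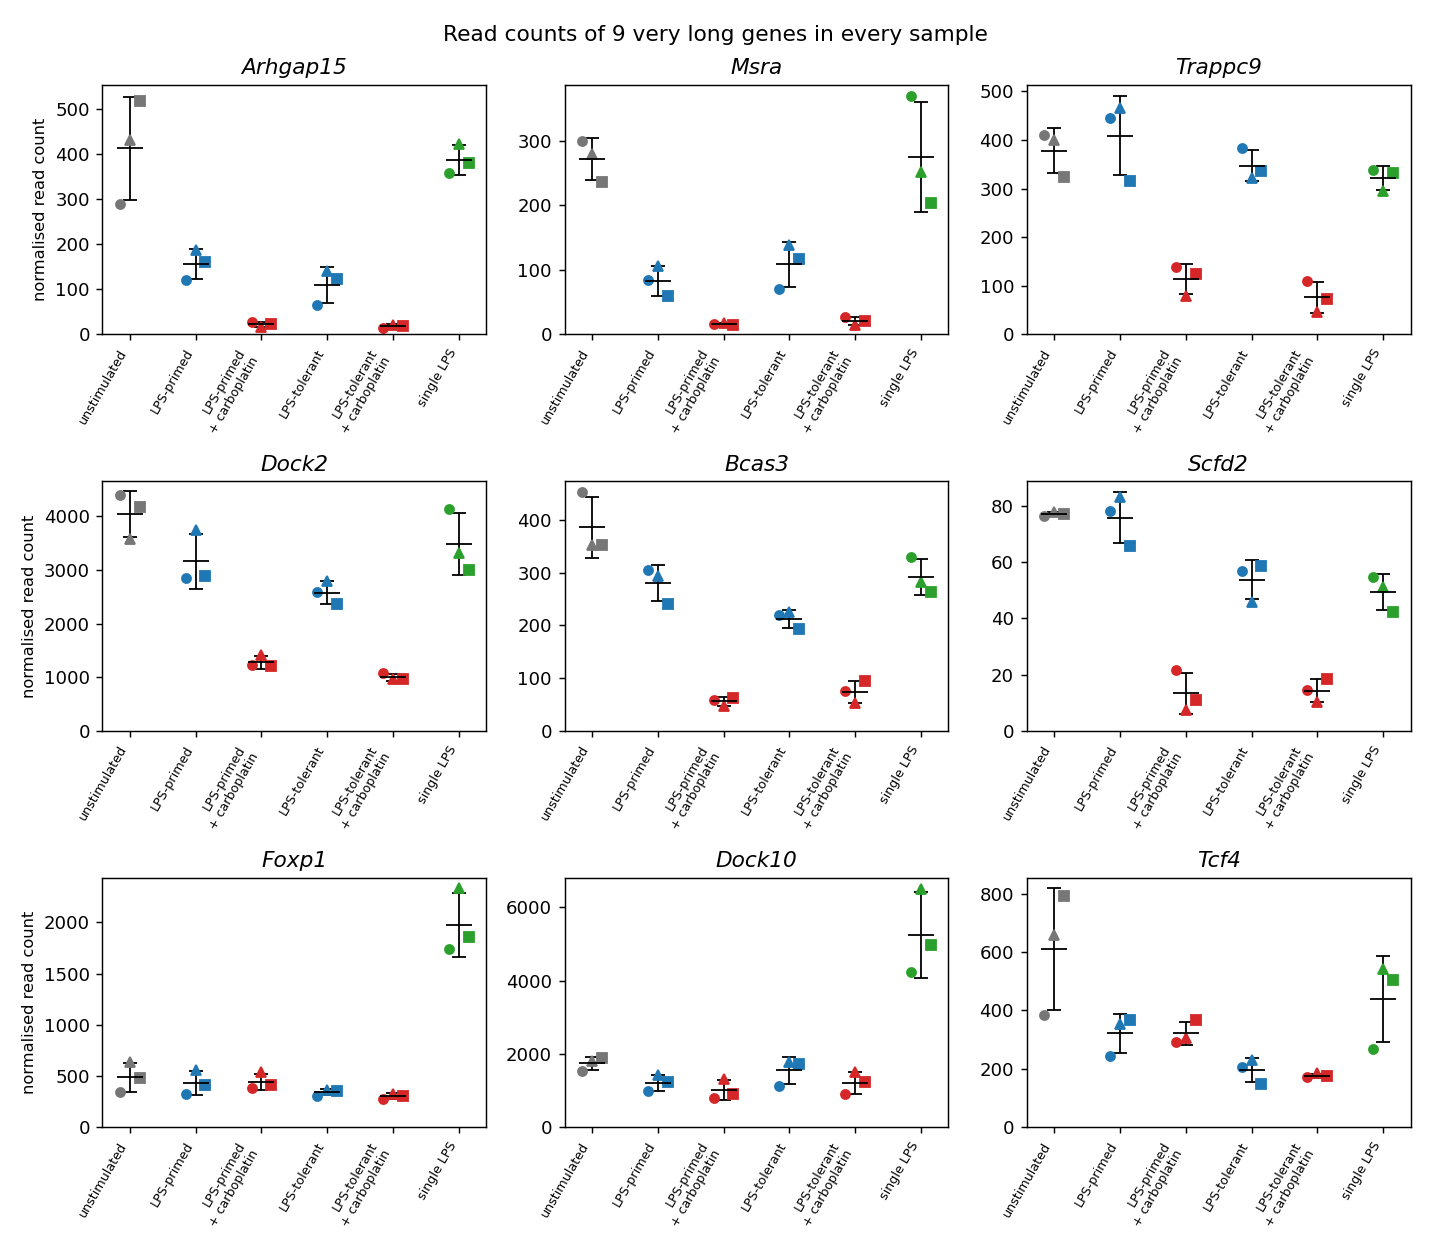
Normalised read counts of 9 genes in every sample (circle, triangle and square are replicates 1, 2 and 3; bars are mean ± SD, n = 3; each vertical axis starts at 0). In the 6 genes of the first and second rows the carboplatin libraries (red) lie below their counterparts (blue) without overlap, whereas for Foxp1, Dock10 and Tcf4 in the last row the red and blue points overlap and the single-dose libraries (green) of Foxp1 and Dock10 are the highest.

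Among the genes of membrane traffic and cilia, 10 of 11 were kept, of which 6 fell in LPS-primed and 5 in LPS-tolerant cells. Trappc9, a subunit of the TRAPP complex that tethers vesicles, had 446, 466 and 315 counts in LPS-primed cells and 138, 79 and 124 with carboplatin. Its LPS-tolerant libraries held 382, 322 and 337 without and 109, 46.7 and 72.6 with carboplatin. The groups were well apart in both states, with a log2FC of -1.85 (SE 0.26, edgeR adjusted p = 0.0013) and -2.20 (SE 0.26, edgeR adjusted p = 0.000641). One of its annotated exons overlaps the RNA Peg13 on the same strand, so some reads could belong to either. Scfd2, a Sec1-family protein, had 78.3, 83.2 and 65.6 counts in LPS-primed cells and 21.6, 7.52 and 11.1 with carboplatin. For LPS-tolerant cells the counts were 57, 45.8 and 58.7 without and 14.4, 10.2 and 18.4 with carboplatin, without overlap. Its log2FC was -2.53 (SE 0.33, edgeR adjusted p = 0.000672) and -1.88 (SE 0.32, edgeR adjusted p = 0.0114), and the latter call was lost without LPS-tolerant replicate 3, LPS-tolerant carboplatin replicate 1 or LPS-tolerant carboplatin replicate 2 (adjusted p up to 0.115).

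Bbs9, a subunit of the BBSome that carries cargo to cilia, fell in both states. It had 104, 92.3 and 86.3 counts in LPS-primed cells and 29.7, 18.8 and 29.2 with carboplatin, and 139, 72.5 and 106 against 26.2, 14.8 and 28.5 in LPS-tolerant cells. The log2FC was -1.87 (SE 0.30, edgeR adjusted p = 0.0049) and -2.17 (SE 0.30, edgeR adjusted p = 0.00166), the former being lost without LPS-primed carboplatin replicate 2 (adjusted p = 0.0533). Lrba, a BEACH-domain protein that keeps cargo from lysosomal degradation, went from 192 ± 29.7 to 50.5 ± 24.2 in LPS-primed and from 172 ± 24.3 to 42.4 ± 7.97 in LPS-tolerant cells (mean ± SD, n = 3). Its log2FC was -1.91 (SE 0.30, edgeR adjusted p = 0.0046) and -2.01 (SE 0.31, edgeR adjusted p = 0.0036). Exoc4, a subunit of the exocyst, which docks vesicles at the plasma membrane, fell by less, from 493 ± 60.7 to 201 ± 40.6 and from 376 ± 18.9 to 168 ± 28.8. Its log2FC was -1.29 (SE 0.18, edgeR adjusted p = 0.00112) and -1.16 (SE 0.18, edgeR adjusted p = 0.0036). Neither Lrba nor Exoc4 lost a call when any single library of the comparison was left out.

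Vti1a, a SNARE of the trans-Golgi, fell in LPS-primed cells with a log2FC of -0.87 (SE 0.17, edgeR adjusted p = 0.0272). The call was lost in 5 of 6 fits without 1 library, at an adjusted p of up to 0.173. LPS-tolerant cells had a log2FC of -0.73 (SE 0.17, edgeR adjusted p = 0.0822), with an adjusted p of 0.014 under the replicate block, and its groups did not overlap in either state. Tbc1d5, which turns off Rab GTPases at endosomes, had 206, 389.6 and 294 counts in LPS-primed cells and 95.9, 163 and 114 with carboplatin, without overlap. The log2FC was -1.25 in LPS-primed and -1.25 in LPS-tolerant cells, at an edgeR adjusted p of 0.155 and 0.141 without and 0.000403 and 0.000412 with the replicate block. Vps13b, a lipid-transfer protein of the Golgi, had a log2FC of -0.90 and -0.97 with an adjusted p of 0.143 and 0.09, and of 0.0126 and 0.00535 with the block. Averaged over both states, Tbc1d5, Vps13b, Vti1a and Dym each fell, with a log2FC of -1.25, -0.93, -0.80 and -0.59. The averaged call of Dym, which maintains the Golgi, was narrow (adjusted p = 0.0471) and was lost in 11 of 12 fits without 1 library, with the adjusted p reaching 0.119.

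Ehbp1, an endocytic adaptor, was the one gene of this group that did not fall in either state or on average. It had 158, 119.6 and 199 counts in LPS-primed cells and 129.7, 99.6 and 149 with carboplatin. In LPS-tolerant cells it had 79.8, 90.7 and 110.2 without and 53.8, 63.8 and 104 with carboplatin, and the ranges overlapped in both states. The log2FC was -0.34 (95% interval -0.91 to 0.24, edgeR adjusted p = 0.936) and -0.33 (95% interval -0.93 to 0.26, edgeR adjusted p = 1).

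Of the 10 listed genes of transcription and chromatin 7 were kept. Here the kept genes spread from a log2FC of -2.36 to 0.04 in LPS-primed cells, with 3 that fell there and 2 that fell in LPS-tolerant cells. Bcas3, a protein of autophagosome formation, had 305, 294 and 241 counts in LPS-primed cells and 58.1, 47 and 62.4 with carboplatin. Its LPS-tolerant libraries held 220.3, 225 and 194 without and 74.7, 52.4 and 94.6 with carboplatin. The groups were far apart in both, with a log2FC of -2.33 (SE 0.21, edgeR adjusted p = 5.02e-05) and -1.52 (SE 0.21, edgeR adjusted p = 0.00166). Smyd3, a lysine methyltransferase, had 61.4, 57 and 82.5 counts in LPS-primed cells and 13.5, 9.4 and 16.1 with carboplatin. For LPS-tolerant cells the counts were 59.5, 57.9 and 51.5 without and 32.8, 25 and 26.6 with carboplatin, also without overlap. The log2FC was -2.36 (SE 0.27, edgeR adjusted p = 0.000182) in LPS-primed and -1.0 (SE 0.25, edgeR adjusted p = 0.115) in LPS-tolerant cells, and the latter had an adjusted p of 0.0275 with the block.

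Cux1, a CUT-homeodomain factor, showed a small fall that was tightly measured. Its counts were 1952, 2179 and 1826 in LPS-primed cells and 1101, 1280 and 1175 with carboplatin, and 1707, 2008 and 1596 against 928, 948 and 908 in LPS-tolerant cells. The log2FC was -0.74 (SE 0.13, edgeR adjusted p = 0.00864) and -0.93 (SE 0.13, edgeR adjusted p = 0.00166). The LPS-primed call was lost without LPS-primed replicate 2, LPS-primed carboplatin replicate 1 or LPS-primed carboplatin replicate 3 (adjusted p up to 0.0768). Supt3, a subunit of the SAGA coactivator whose exons overlap Runx2 on the opposite strand, had a log2FC of -1.24 (SE 0.32, edgeR adjusted p = 0.163) and -0.98 (SE 0.33, edgeR adjusted p = 0.386), and fell when averaged (-1.11, SE 0.23, edgeR adjusted p = 0.0156). Its adjusted p in LPS-primed cells was 0.0183 with the block. Camta1, the longest kept gene at 802 kb, was also the least read, and its log2FC of -0.78 (95% interval -1.51 to -0.04, edgeR adjusted p = 0.676) and -0.28 (95% interval -1.01 to 0.45, edgeR adjusted p = 1) did not settle whether it changed.

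Foxp1 and Tcf4, both sequence-specific transcription factors, lay near 0. Foxp1, a forkhead repressor of monocyte differentiation, had 330.2, 556 and 413 counts in LPS-primed cells and 386, 537 and 412 with carboplatin. LPS-tolerant cells had 309, 367 and 356 without and 273, 329 and 308 with carboplatin. The ranges overlapped in both states, and the log2FC was 0.04 (95% interval -0.42 to 0.50, edgeR adjusted p = 0.994) and -0.18 (95% interval -0.65 to 0.29, edgeR adjusted p = 1). Tcf4, an E protein required in plasmacytoid dendritic cells, had 244, 354 and 367 counts in LPS-primed cells and 292, 307 and 366 with carboplatin. In LPS-tolerant cells it had 208, 229.7 and 149 without and 172, 184 and 175 with carboplatin. Its log2FC was 0.00 (95% interval -0.58 to 0.58, edgeR adjusted p = 1) and -0.14 (95% interval -0.74 to 0.45, edgeR adjusted p = 1).

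Of the kinases, phosphatases and ubiquitin enzymes only Ube2e2 had enough reads to be kept. Ube2e2, a ubiquitin-conjugating enzyme, had 103, 139 and 112 counts in LPS-primed cells and 41.9, 32.9 and 36.2 with carboplatin. Its LPS-tolerant libraries held 125.4, 104 and 76.2 without and 42, 43.3 and 45.9 with carboplatin, without overlap in either state. The log2FC was -1.68 (SE 0.22, edgeR adjusted p = 0.00097) and -1.21 (SE 0.22, edgeR adjusted p = 0.0202). The latter call was lost in 5 of 6 fits without 1 library, at an adjusted p of up to 0.118.

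The enzymes of RNA, tRNA and metabolism were led by Msra (chr14:64357410-64693352, 336 kb, minus strand), which repairs oxidised methionine. Msra had 83.6, 106 and 59.1 counts in LPS-primed cells and 16.2, 16.9 and 14.1 with carboplatin. For LPS-tolerant cells the counts were 69.6, 138 and 117 without and 26.2, 14.8 and 21.1 with carboplatin. The groups did not overlap, and the log2FC was -2.38 (SE 0.33, edgeR adjusted p = 0.0013) and -2.40 (SE 0.32, edgeR adjusted p = 0.00166). Cdkal1, which modifies a lysine tRNA, went from 122 ± 9.61 to 37.9 ± 8.29 in LPS-primed and from 86 ± 8.82 to 36.1 ± 10.4 in LPS-tolerant cells (mean ± SD, n = 3). Its log2FC was -1.68 (SE 0.24, edgeR adjusted p = 0.00183) and -1.24 (SE 0.25, edgeR adjusted p = 0.0317), the latter lost in 5 of 6 fits without 1 library (adjusted p up to 0.198). Fto, an RNA demethylase, had a log2FC of -0.86 (SE 0.17, edgeR adjusted p = 0.037) and -0.92 (SE 0.18, edgeR adjusted p = 0.0249). Both calls of Fto were fragile, being lost in 6 of 6 and 5 of 6 fits without 1 library at an adjusted p of up to 0.295 and 0.162.

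Fars2, the phenylalanyl-tRNA synthetase of mitochondria, had a log2FC of -1.12 (SE 0.24, edgeR adjusted p = 0.0683) and -1.05 (SE 0.25, edgeR adjusted p = 0.09), and its groups did not overlap in either state. It fell when averaged (-1.08, SE 0.17, edgeR adjusted p = 0.00198), and its adjusted p with the block was 0.00202 and 0.0052 in the single states. Thada, Mbnl1 and Fndc3b did not fall in either state or on average. Thada had a log2FC of -0.62 (95% interval -1.10 to -0.14, edgeR adjusted p = 0.459) in LPS-primed and -0.42 (95% interval -0.90 to 0.06, edgeR adjusted p = 0.835) in LPS-tolerant cells. Mbnl1, a splicing regulator, and Fndc3b, a membrane protein with fibronectin repeats, had intervals of -1.57 to 0.65 and -1.26 to 0.51 in LPS-primed cells, wide enough to hold both no change and a fall of 1 on the log2 scale.

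Cep128, a protein of the subdistal appendages of centrioles, had 42.3, 94.6 and 83.5 counts in LPS-primed cells and 25.7, 11.3 and 15.1 with carboplatin. LPS-tolerant cells had 50.6, 74.3 and 50.4 without and 15.7, 12.5 and 12.9 with carboplatin, without overlap. Its log2FC was -2.11 (SE 0.36, edgeR adjusted p = 0.00864) and -2.10 (SE 0.37, edgeR adjusted p = 0.0157), and the calls were lost without LPS-primed replicate 2, LPS-primed replicate 3, LPS-primed carboplatin replicate 2 or LPS-primed carboplatin replicate 3 in the former and LPS-tolerant replicate 2, LPS-tolerant carboplatin replicate 2 or LPS-tolerant carboplatin replicate 3 in the latter, with the adjusted p up to 0.0895 and 0.116. Mad1l1, which anchors the spindle checkpoint, had a log2FC of -1.34 (SE 0.31, edgeR adjusted p = 0.0919) and -0.98 (SE 0.31, edgeR adjusted p = 0.304) and fell when averaged (-1.16, SE 0.22, edgeR adjusted p = 0.0076). With the block its adjusted p was 0.000934 and 0.00958 in the single states. A list of 8 proliferation genes moved beside Diaph3, Cep128 and Mad1l1. It summed to between 1341 and 2462 normalised counts in LPS-primed cells and 767 to 1117 with carboplatin, and to 988 to 2732 and 715 to 1036 in LPS-tolerant cells. Of the 8, 0 fell in LPS-primed and 2 (Plk1 and Ccnb1) in LPS-tolerant cells, and all 8 had a log2FC below 0 in both, with a median of -1.18 and -1.49. With the block 4 (Top2a, Plk1, Ccnb1 and Ccnb2) fell in LPS-primed cells, and the same 4 and Cdc20 in LPS-tolerant cells. The part of cell division in the values of Diaph3, Cep128 and Mad1l1 was not tested.

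A gene was called spared in a state where it did not fall and its 95% interval lay wholly above a log2FC of -1. By that rule 4 of 33 genes were spared in both states, namely Foxp1, Tcf4, Dock10 and Ehbp1. Thada met the rule in LPS-tolerant cells and on average, but its averaged interval of -0.86 to -0.18 lay wholly below 0. The rule thus bounds the size of a fall and does not show that there was none. The remaining uncalled genes, 12 in each state, had intervals that reached -1 or lower and are unresolved. With the replicate block, Thada had an averaged adjusted p of 0.035 (log2FC -0.52), Mbnl1 of 0.00547 (-0.53, and of 0.0349 in LPS-tolerant cells) and Fndc3b of 0.038 (-0.48) in edgeR. Diaph2 had one of 2.31e-05 (-0.93), and Dock10, spared by the rule, one of 0.0288 (-0.31). For Foxp1, Tcf4, Ehbp1 and Camta1 the averaged adjusted p with the block stayed at 0.737, 0.855, 0.139 and 0.229.

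Part of the spread behind the unresolved genes followed the replicate number. Mbnl1, Fndc3b, Diaph2, Tbc1d5, Dock10 and Foxp1 had their lowest value in replicate 1 in all 6 groups, and Fars2 and Mad1l1 had their highest there. Mbnl1 in replicate 1 was at 0.313 to 0.477 of the mean of replicates 2 and 3, and Diaph2 at 0.338 to 0.623. In LPS-primed cells, for example, Mbnl1 had 273, 824 and 683 counts and 248, 558 and 483 with carboplatin, so each pair was lower while the groups overlapped. The share of read pairs that HTSeq set aside as ambiguous was also lower in replicate 1, at 0.10% to 0.18% of pairs, than in the others, at 0.23% to 0.29%. Its part in the replicate 1 values was not tested.

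Annotated start sites show that some members can be read from a shorter unit than their full span. Foxp1 has 3 RefSeq starts, 596, 341 and 103 kb from its 3′ end, and Dock10 has 2, 257 and 164 kb from its end. Arhgap15, the lowest gene, has 2 starts, both far out, 647 and 609 kb from its end. Elmo1, which fell, also has an inner start, 135 kb from its end, beside an outer one at 518 kb, and Mbnl1, unresolved, has one at 129 kb. The counts are per gene and do not say which start was used. The sequences before these starts are given below as far as they are free of annotated exons, 5′ to 3′ on the gene's strand, from RefSeq promoter entries of GRCm38.p6, with positions found by exact match in GRCm39 and CpG dinucleotides in capitals.
Foxp1 outer start (chr6:99498124-99498204, minus strand): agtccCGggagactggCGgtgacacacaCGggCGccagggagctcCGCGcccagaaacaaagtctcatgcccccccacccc
Foxp1 middle start (chr6:99243494-99243726, minus strand): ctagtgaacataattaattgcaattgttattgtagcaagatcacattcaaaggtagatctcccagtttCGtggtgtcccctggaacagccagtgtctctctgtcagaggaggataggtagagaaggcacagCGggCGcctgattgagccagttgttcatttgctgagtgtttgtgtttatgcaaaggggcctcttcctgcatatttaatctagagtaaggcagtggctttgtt
Foxp1 inner start (chr6:99005425-99005509, minus strand): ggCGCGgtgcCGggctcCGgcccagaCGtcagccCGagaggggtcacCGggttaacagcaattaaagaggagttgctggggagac
Dock10 outer start (chr1:80736271-80736492, minus strand): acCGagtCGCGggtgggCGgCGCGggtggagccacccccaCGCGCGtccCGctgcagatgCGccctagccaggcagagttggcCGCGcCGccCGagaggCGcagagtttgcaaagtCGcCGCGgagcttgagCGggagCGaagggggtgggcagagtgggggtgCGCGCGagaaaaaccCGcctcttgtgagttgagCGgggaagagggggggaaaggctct
Dock10 inner start (chr1:80643073-80643319, minus strand): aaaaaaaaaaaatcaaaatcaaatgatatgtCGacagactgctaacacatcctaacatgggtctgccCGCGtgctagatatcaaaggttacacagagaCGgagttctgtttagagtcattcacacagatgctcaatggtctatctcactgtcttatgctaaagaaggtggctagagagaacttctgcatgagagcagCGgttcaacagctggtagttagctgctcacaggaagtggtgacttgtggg
Arhgap15 outer start (chr2:43638586-43638814, plus strand): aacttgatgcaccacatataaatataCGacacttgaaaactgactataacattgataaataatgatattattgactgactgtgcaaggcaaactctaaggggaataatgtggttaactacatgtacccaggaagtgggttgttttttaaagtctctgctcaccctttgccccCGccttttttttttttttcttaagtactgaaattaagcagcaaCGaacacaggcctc
Arhgap15 inner start (chr2:43677117-43677358, plus strand): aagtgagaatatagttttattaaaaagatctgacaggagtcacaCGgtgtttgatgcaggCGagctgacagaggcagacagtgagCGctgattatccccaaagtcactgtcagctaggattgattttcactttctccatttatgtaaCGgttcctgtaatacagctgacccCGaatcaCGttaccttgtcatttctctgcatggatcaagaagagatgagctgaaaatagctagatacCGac
They are shown because they set Foxp1 and Dock10, spared by the rule above, beside the gene with the deepest fall. Over the whole 250 bases before each start, CpG numbered 11, 3 and 34 for the Foxp1 starts, 27 and 5 for those of Dock10, and 4 and 7 for those of Arhgap15. Promoter entries were used for 27 of the 33 genes, 36 starts in all. Tcf4 and Dym were left out of this search, so their absence here does not mean that they lack an entry. On either strand of those 250 bases, the GC box GGGCGG was present at 17 of 36 starts, compared with 32.7% of all 32851 entries, GAGGAA (a core of PU.1 sites) at 6 against 23.3%, TGANTCA (AP-1) at 1 against 6.75%, an NF-κB consensus at 5 against 7.25%, and TGACGTCA (CRE) at 1 against 1.55%. None of the Foxp1, Dock10 or Arhgap15 starts held the NF-κB or AP-1 letters in this window.

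Span placed the members among all genes. The median log2FC with carboplatin was between -0.01 and 0.06 in both states for tested genes of up to 100 kb, -0.17 (LPS-primed) and -0.21 (LPS-tolerant) for the 1081 genes of 100 to 250 kb, -0.74 and -0.84 for the 215 of 250 to 500 kb, and -1.12 and -1.06 for the 53 over 500 kb. The share of genes that fell in LPS-primed cells was 0.278%, 12.1% and 20.8% in those last 3 classes, and 0.185%, 12.6% and 24.5% in LPS-tolerant cells. These classes include the members. In LPS-primed cells 26 genes of 250 to 500 kb and 11 over 500 kb fell, of which 11 and 6 were members. For LPS-tolerant cells the counts were 27 and 13, of which 11 and 5 were members. Beside the 33 members, the other 233 tested genes of over 250 kb had a median of -0.76 and -0.84, and 8.58% and 10.3% of them fell, compared with 51.5% and 48.5% of the members. The 180 of them that were read at least as deeply as the least read member had a median of -0.70 and -0.77, with 11.1% and 12.2% that fell. The members were listed with their carboplatin values known, and that difference was not tested.

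Within the members themselves span went only loosely with the fall. The Spearman rank correlation between span and log2FC was -0.31 in LPS-primed and -0.32 in LPS-tolerant cells, and -0.50 and -0.47 with the span of the canonical transcript, each over 33 genes and given as a description. The canonical transcript of Foxp1 spans 98 of its 597 kb and that of Dock10 164 of 257 kb, whereas that of Tcf4 covers 345 of 346 kb. The 11 members over 500 kb had a median of -1.29 and -1.06, and the 22 shorter ones -1.24 and -0.98. Msra and Scfd2, at 336 and 332 kb, were lower than Camta1 at 802 kb. The density of neighbouring guanines (GG or CC steps per kilobase of span) had a rank correlation of 0.02 and 0.20 with the log2FC. For the number of such steps in the span, which grows with span, it was -0.33 and -0.28. Mbnl1, the only member under 250 kb, spans 157 kb.

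**Figure D3:**
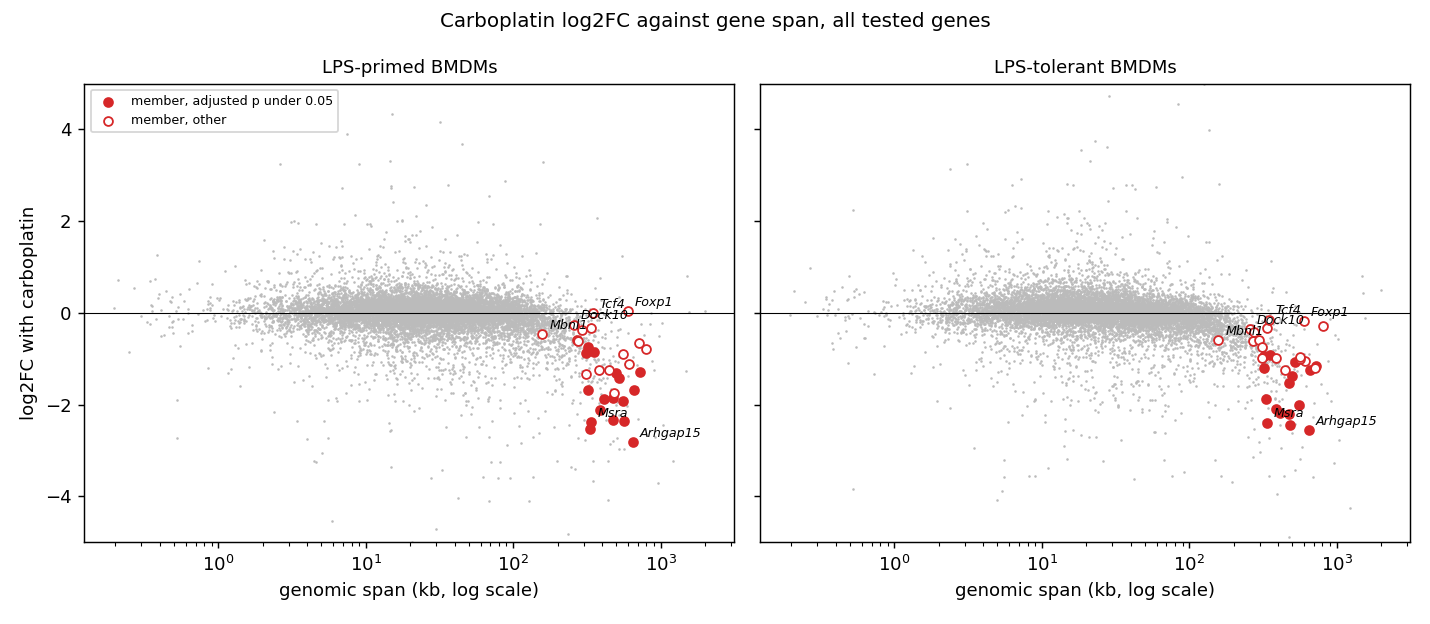
Each grey point is a tested gene, with its genomic span in kb on a log scale and its log2FC with carboplatin (3 genes per panel lie outside the axis), and the 33 members are in red, filled where the adjusted p was under 0.05. Grey points scatter around 0 up to about 100 kb and drift down beyond it, while Foxp1 and Tcf4 stay near 0.

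Shorter genes that lie across the members' loci had no passing change. Cox6c, on the opposite strand at the Vps13b locus, had a log2FC of 0.07 in LPS-primed and -0.40 in LPS-tolerant cells, Zdhhc6 at Vti1a 0.07 and -0.06, Lyrm4 at Fars2 -0.42 and -0.20, Rpgrip1l at Fto 0.04 and -0.57, and Runx2 at Supt3 -0.81 and -0.31. Their spans were 14.8, 45.4, 139, 96.4 and 319 kb. Without a stated strand setting of the counter, reads in exons that these genes share with the member cannot be assigned to one of them with certainty.

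The proteins of the members' complexes and families are mostly encoded by shorter genes, and the median log2FC of these lay near 0. Of 72 tested partner genes on 10 lists, 1 fell in LPS-primed and 1 in LPS-tolerant cells, against 0.372% and 0.407% of all tested genes. In either state 0 rose, against 0% and 0.0177%, and the median log2FC was -0.07 and -0.03. With shares this low, a short list without a call is no result about that list. The partner that fell was Dock1 in both states, itself a gene of 503 kb, with a log2FC of -1.93 (SE 0.22, edgeR adjusted p = 0.000188) and -1.46 (SE 0.22, edgeR adjusted p = 0.00319). The 50 partners of up to 100 kb had a median of -0.02 and 0.04, and 0 of them fell. The 22 longer ones had a median of -0.31 and -0.37. These lists were chosen with earlier results known and are given as a description.

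Complex by complex, Trappc9 fell while 0 of 13 other TRAPP subunits passed, with log2FC values from -0.27 to 0.17 in LPS-primed cells. The partner with the lowest p there was Trappc12 (averaged log2FC -0.19, edgeR adjusted p = 0.63). Exoc4 fell while 0 of 8 other exocyst subunits passed, and the lowest p belonged to Exoc6b, a gene of 455 kb (averaged log2FC -0.72, edgeR adjusted p = 0.103). Bbs9 fell while 0 of 7 BBSome partners passed, with Ttc8 the nearest (averaged -0.51, edgeR adjusted p = 0.222). For Msra 0 of 2 tested Msrb genes passed (Msrb1, 0.30 in LPS-tolerant cells, edgeR adjusted p = 0.893), and for Supt3 0 of 11 SAGA subunits (Supt20, 0.26 in LPS-tolerant cells, edgeR adjusted p = 0.796). Among VPS13 genes 0 of 3 passed (Vps13d, averaged -0.34, edgeR adjusted p = 0.227) and among formins 0 of 5 (Fmnl2, -0.85 in LPS-tolerant cells, edgeR adjusted p = 0.559). On the averaged effect, where 1.88% of all tested genes fell, Dock1 (-1.70, edgeR adjusted p = 5.90e-06) and 3 further relatives of members fell. The 3 were Dock4 (-0.73, edgeR adjusted p = 0.0403), Prkcb (-0.94, edgeR adjusted p = 0.00732) and Wdfy4 (-0.55, edgeR adjusted p = 0.0466), of 402, 346 and 226 kb. With the replicate block Exoc6b (edgeR adjusted p = 0.00155), Exoc2 (0.0215) and Vps13d (0.0374) fell as well on the averaged effect, Exoc2 being named after its values were seen.

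**Figure D4:**
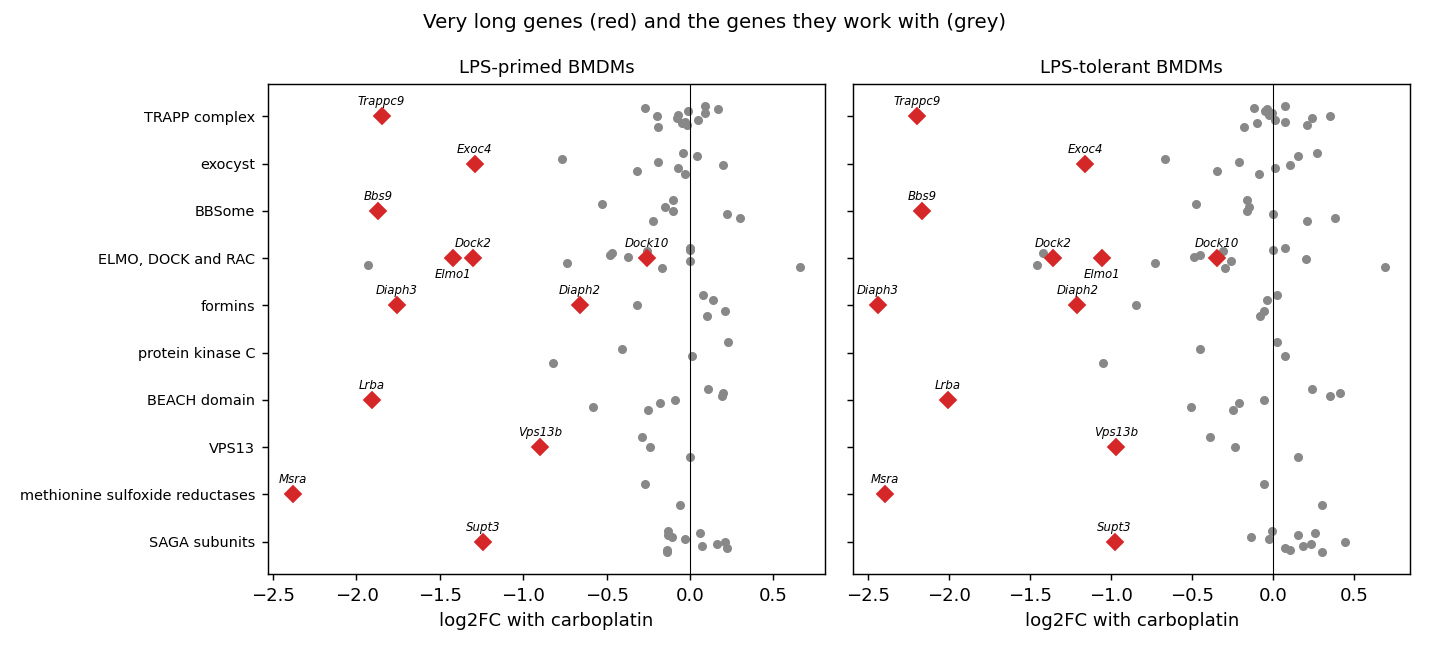
Log2FC with carboplatin of members (red diamonds, named) and of the tested genes of their complexes or families (grey points), by list, in LPS-primed and LPS-tolerant BMDMs. The grey points gather around 0, the lowest of them in the ELMO, DOCK and RAC list being Dock1 at -1.93 and -1.46.

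Without carboplatin, LPS moved the members in both directions. After LPS priming 8 of 33 genes fell and 3 rose, against 13.1% and 12.1% of all tested genes, with a median log2FC of -0.21 against -0.02. With the replicate block 15 fell and 5 rose, for which no share of all genes is given. Scaled by library size alone, which moves the median of all genes here by -0.24, 14 fell and 2 rose, against 2598 and 932 of all 11305 tested genes. The block added Bcas3, Tbc1d5, Dock2, Dock10, Cux1, Mad1l1 and Mbnl1 to the genes that fell (adjusted p from 7.44e-06 to 0.0458) and Fndc3b (0.00292) and Ehbp1 (0.0309) to those that rose. Diaph3 dropped the most, from 316, 379 and 263 counts in unstimulated cells to 33.9, 84.3 and 67.5 in LPS-primed cells, a log2FC of -2.37 (SE 0.37, edgeR adjusted p = 0.000147). Msra went from 272 ± 33.1 to 82.9 ± 23.4 (-1.72, SE 0.28, edgeR adjusted p = 0.000224), Cep128 from 221 ± 26.2 to 73.5 ± 27.5 (-1.59, SE 0.32, edgeR adjusted p = 0.00114) and Arhgap15 from 414 ± 115 to 156 ± 33.4 (-1.40, SE 0.27, edgeR adjusted p = 0.000904). Bbs9, Tcf4, Elmo1 and Smyd3 also fell, with a log2FC between -1.02 and -0.91. The call of Tcf4 was lost without unstimulated replicate 2, unstimulated replicate 3 or LPS-primed replicate 1 (adjusted p up to 0.111). In LPS-primed cells the 8 proliferation genes all fell, with a median log2FC of -3.17, and their part in the fall of Diaph3 and Cep128 was not tested.

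Vti1a, Thada and Diaph2 rose with priming. Vti1a had 125.2, 134 and 153 counts in unstimulated and 223, 255 and 235 in LPS-primed cells (0.79, SE 0.17, edgeR adjusted p = 0.00184). Thada went from 117 ± 21.7 to 219.7 ± 31.7 (0.91, SE 0.23, edgeR adjusted p = 0.00646). Diaph2 had 118, 262 and 239 in unstimulated and 274, 575 and 654 in LPS-primed cells (1.28, SE 0.45, edgeR adjusted p = 0.0485), and lost the call in 5 of 6 fits without 1 library, at an adjusted p of up to 0.169. Scfd2 (-0.03), Trappc9 (0.11) and Lrba (0.41), which carboplatin lowered, did not pass in this comparison.

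After a single LPS dose the genes with the largest rise were Foxp1 and Dock10, both spared by the rule above. Of the other genes that rose, Ube2e2 fell with carboplatin in both states, and Fndc3b and Diaph2 were unresolved. A link between this rise and the carboplatin values was not tested. Against unstimulated cells 3 of 33 genes fell and 5 rose, compared with 26.9% and 24.3% of all tested genes. With the block 12 fell and 5 rose, again without a share of all genes. By library size alone (a shift of -0.34) 16 fell and 2 rose, against 4636 and 1847 of all 11305 tested genes. The block added Bcas3, Scfd2, Bbs9, Cep128, Tbc1d5, Vps13b, Fars2, Mad1l1 and Mbnl1 (adjusted p from 0.00267 to 0.0481). Foxp1 rose from 345, 635 and 481 counts to 1736, 2330 and 1853, a log2FC of 2.02 (SE 0.22, edgeR adjusted p = 1.34e-06). Dock10 rose from 1545, 1811 and 1883 to 4232, 6506 and 4978 (1.59, SE 0.24, edgeR adjusted p = 3.74e-05). For both genes the 3 single-dose libraries stood above all other 15 libraries. Fndc3b (1.22, SE 0.42, edgeR adjusted p = 0.0231), Diaph2 (1.19, SE 0.45, edgeR adjusted p = 0.0367) and Ube2e2 (0.76, SE 0.21, edgeR adjusted p = 0.00591) rose as well, and Dym (-1.04, SE 0.21, edgeR adjusted p = 0.000551), Supt3 (-0.99, SE 0.31, edgeR adjusted p = 0.0122) and Fto (-0.71, SE 0.17, edgeR adjusted p = 0.00257) fell. The calls of Fndc3b and Diaph2 were lost without unstimulated replicate 1, single-dose replicate 2 or single-dose replicate 3 for the former (adjusted p up to 0.131) and in 4 of 6 fits for the latter (up to 0.143).

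LPS-tolerant cells were compared both with singly stimulated cells and with cells that had been primed only. Against the single dose 12 of 33 genes fell and 1 rose, against 18.3% and 16.2% of all tested genes. Foxp1 had a log2FC of -2.52 (SE 0.23, edgeR adjusted p = 3.49e-07), Dock10 of -1.75 (SE 0.24, edgeR adjusted p = 2.87e-05), Arhgap15 of -1.82 (SE 0.28, edgeR adjusted p = 7.64e-05) and Elmo1 of -1.38 (SE 0.20, edgeR adjusted p = 3.90e-05). Diaph3, Msra, Cep128, Tcf4, Smyd3, Ube2e2, Exoc4 and Dock2 also fell, from -2.53 to -0.44, and Dym alone rose (0.62, SE 0.21, edgeR adjusted p = 0.0293; with the block Vps13b rose as well, adjusted p = 0.0448). The call of Dym was lost without LPS-tolerant replicate 1, LPS-tolerant replicate 2, single-dose replicate 2 or single-dose replicate 3 (adjusted p up to 0.151), and that of Dock2 without LPS-tolerant replicate 1, LPS-tolerant replicate 3 or single-dose replicate 1 (up to 0.148). The block added Bcas3 (0.0382) and Mbnl1 (0.0124) to the genes that fell. The comparison shares the LPS-tolerant and single-dose libraries with the others in this account.

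Against priming alone, the second LPS dose changed 0 of 33 genes by edgeR in either direction, compared with 2.71% and 3.6% of all tested genes. At an unadjusted edgeR p under 0.05 there were 6 of 33 (Exoc4, Tcf4, Ehbp1, Fto, Dym and Cdkal1), all with a negative log2FC. This compares with 2385 of all 11305 tested genes, so the share among the members was no higher than among all genes. DESeq2 called 0 of the members. With the block Ehbp1, Tcf4 and Dym fell (edgeR adjusted p = 0.00904, 0.0358 and 0.0358) and Dock10 rose (0.0449). The response to the second dose minus the response to a single dose was lower for 3 of 33 genes and higher for 0, against 13.3% and 10.5% of all tested genes, a comparison added after the data were seen. The 3 were Foxp1, with a difference of -2.35 (SE 0.31, edgeR adjusted p = 3.05e-05), Dock10, with -1.23 (SE 0.33, edgeR adjusted p = 0.0124), and Ube2e2, with -0.97 (SE 0.30, edgeR adjusted p = 0.0235). The call of Ube2e2 was lost in 5 of 12 fits without 1 library, without unstimulated replicate 3, LPS-primed replicate 2, LPS-tolerant replicate 3, single-dose replicate 2 or single-dose replicate 3 (adjusted p up to 0.0684). The block gave 7 lower and 1 higher, for which no share of all genes is given. It added Fndc3b, Ehbp1, Diaph2 and Vti1a (adjusted p from 0.00137 to 0.0364) on the lower side and Mbnl1 (0.0194) on the higher side.

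**Figure D5:**
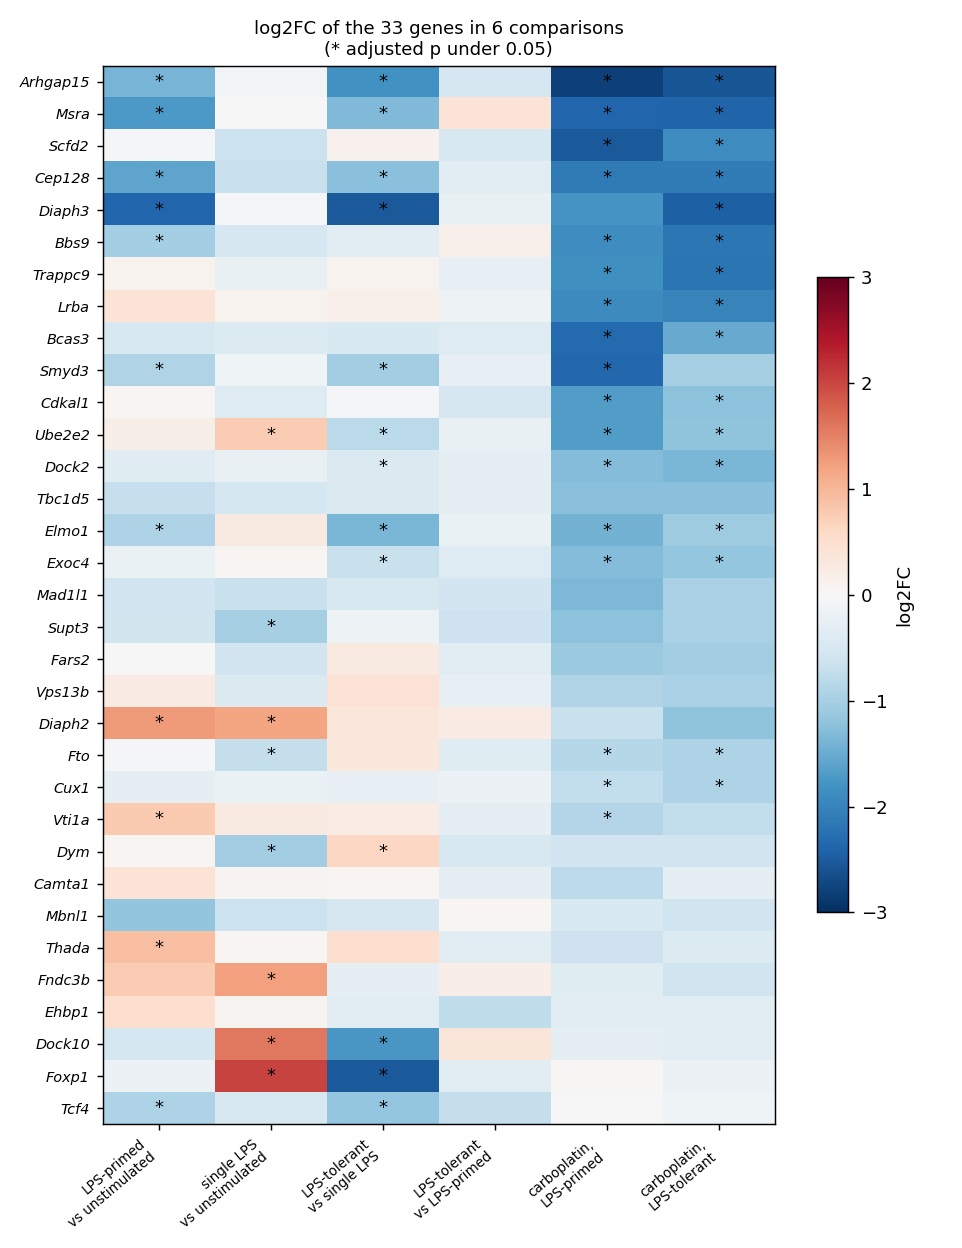
Log2FC of the 33 genes (rows, ordered as by the averaged carboplatin effect) in 4 LPS and 2 carboplatin comparisons (columns), from -3 (blue) to 3 (red), with an asterisk where the adjusted p was under 0.05. Both carboplatin columns are blue down to the last rows, where Dock10, Foxp1 and Tcf4 are pale, and the single-dose column is reddest for Foxp1 and Dock10.

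Levels between genes are compared per kilobase of the canonical mRNA. In unstimulated cells Dock2 was highest at 623 normalised counts per kb, Mbnl1 stood at 241, Dock10 at 239 and Cux1 at 211, and Camta1 was lowest at 3.24. Mbnl1, Dock10 and Cux1 did not differ beyond their spread between replicates. Foxp1 is not ranked, since its counts cover annotated exons of 16.2 kb in all and its canonical mRNA is 1.85 kb. With carboplatin in LPS-primed cells Dock2 held 198 per kb, while Smyd3 and Scfd2 were at 1.79 and 3.64.

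The 7 listed genes below the mean of 20 reads were Prkce (18.3), Rora (17.7), Zbtb20 (11.8), Prkca (4.94), Ptprg (0.111), Auts2 (0.0556) and Nbea (0.0556). Prkce, a protein kinase C, had 13.8, 21.6 and 24.4 normalised counts in LPS-primed cells and 2.7, 0.94 and 13.1 with carboplatin, and 16.5, 22.4 and 42.2 without and 6.56, 3.42 and 8.27 with carboplatin in LPS-tolerant cells, without overlap in either. Its log2FC was -1.79 (SE 0.80, edgeR adjusted p = 0.676) and -2.12 (SE 0.78, edgeR adjusted p = 0.486), and did not pass at this depth. Averaged over both states Prkce had a log2FC of -1.96 (SE 0.56, edgeR adjusted p = 0.0923), with an adjusted p of 0.0044 under the block. Prkca had 2.12, 7.97 and 9.38 without and 0, 1.88 and 0 with carboplatin in LPS-primed cells and 10.1, 7.77 and 5.15 without and 0, 2.28 and 0 with carboplatin in LPS-tolerant cells, and was too lightly read to be tested here. The study, at its own limits, lists Prkca among the genes lowered by carboplatin in LPS-tolerant cells. Ptprg, Auts2 and Nbea had 1 or 2 reads in all 18 libraries together, so no change could be detected in them.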

How the data were processed

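RNA was measured in 18 BMDM libraries in 6 groups of 3 biological replicates (TruSeq stranded mRNA libraries). The deposited files hold raw read counts per gene, which the authors obtained with HTSeq from HISAT2 alignments (GRCm39). Versions, gene annotation and the strand option are not given in the sources used here. Rows that name no gene (26.5% to 33.1% of pairs without a feature, 41.5% to 46.9% in all) were left out. The authors' own DESeq2 comparisons were not used.

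Counts were fitted in edgeR 4.0.16 (R 4.3.3, TMM, filterByExpr, all 18 samples, quasi-likelihood test, Benjamini-Hochberg over 11305 genes). The procedure was also run on simulated counts. These were drawn independently for each library, without a shared deviation of same-numbered replicates, so that run does not bear on such a deviation. A normalised count is the count divided by its effective library size and multiplied by the mean effective library size. SE and 95% intervals are from the fit. Spans and exons came from GENCODE M39, matched to 97.3% of tested genes. Promoter sequences came from RefSeq. Every listed gene is named, and from each partner list the called genes, at most 4, or the gene of lowest p. The members and gene lists were chosen with earlier results of these data known.

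Same-numbered replicates deviated together from their group means (mean correlation 0.349 over 45 pairs, lowest 0.0631, against -0.17 for different numbers). In every comparison of groups made here each pair exceeded 0.1, so same-numbered samples were related. The classes of genes that fell, were spared or were unresolved nevertheless rest on the fit without a replicate block. Values with the block are given where a call changed. No libraries were identical. Alternatives were DESeq2 1.42.0, other scalings, no filter, only the groups compared, other limits, other member sets, and leaving out each library. Depth limits genes such as Camta1 and Prkce.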

Additional observations from a re-analysis of the deposited data

Results flagged for a closer look

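The response to the second LPS dose (LPS-tolerant minus LPS-primed) differed from the response to a single dose (single-dose minus unstimulated) for 3 of the 33 genes, by a test of the difference itself in edgeR. Foxp1 had a difference of -2.35 on the log2 scale, its log2FC being 2.02 after the single dose and -0.33 after the second. Dock10 had a difference of -1.23, with 1.59 after the single dose and 0.36 after the second. Ube2e2 had a difference of -0.97, with 0.76 and -0.22. The call of Ube2e2 was lost in 5 of 12 fits without 1 library (unstimulated replicate 3, LPS-primed replicate 2, LPS-tolerant replicate 3 or single-dose replicate 2 or 3), at an edgeR adjusted p of up to 0.0684. The comparison was chosen after the data were seen. All 3 differences are from libraries that differ in priming, in the doses received and in the time since the first dose, which cannot be told apart.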

How the results depend on the processing

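For carboplatin, the counts of genes that fell were 17 in LPS-primed, 16 in LPS-tolerant cells and 24 on average, and no alternative gave a gene that rose. They became 9 and 2 with only the compared groups in the fit, 6, 7 and 7 at the limits of the study, and 8, 7 and 14 without the genes it lists, where the medians were -0.855, -0.932 and -0.889. Leaving out 1 library gave 13 to 17, 9 to 13 and 23 to 24. With the replicate block the counts were 24, 24 and 29, and with DESeq2 23, 21 and 24. Counts under the alternatives in this section stand without the share of all tested genes. They describe how a setting moves the calls, not how the members compare with all genes.

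For LPS priming, 14 genes fell by library size alone, 15 with the replicate block (5 rose), 1 at the study's limits (0 rose), 16 at an adjusted p under 0.25 (5 rose) and 2 without the listed genes. The median was -0.451 by library size, -0.026 without the listed genes and -0.328 to -0.077 without 1 library, the extremes being without LPS-primed replicate 2 and unstimulated replicate 2. For the single dose, 16 fell and 2 rose by library size (median -0.525), 12 fell with the block, 0 fell and 1 rose at the study's limits, 15 fell at 0.25, and without 1 library 3 to 6 fell and 3 to 5 rose. The 6 and a 3 came without unstimulated replicate 1, and 3 also without single-dose replicate 2 or 3.

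For LPS-tolerant against singly stimulated cells, 2 fell at the study's limits and 7 without the listed genes (median -0.259). The count that rose was 2 with the block, 0 with only the compared groups or at the study's limits, 4 at 0.25, and 0 to 1 without 1 library (median -0.391 to -0.227). For the second dose, 3 fell and 1 rose with the block and 6 fell at 0.25. For the difference in response, 7 fell and 1 rose with the block, 1 fell at the study's limits, 7 fell and 2 rose at 0.25, and 0 to 1 rose without 1 library (1 without single-dose replicate 1). Its median was 0.108 by library size, -0.241 without the listed genes and -0.151 to 0.048 without 1 library.

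Library size alone shifted the median of all genes by -0.24 (priming), -0.34 (single dose), -0.10 (second dose) and 0.24 (difference in response). No gene's direction reversed past the threshold in any alternative. The cause of these shifts was not tested.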
